A study of Mus musculus with 12 samples.

Results

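The Gimap family was described in CD69+ regulatory T cells (Treg) sorted from the thrombus, the vein wall and the spleen of mice with an experimental venous thrombus. The family is the 8 genes Gimap1, Gimap3, Gimap4, Gimap5, Gimap6, Gimap7, Gimap8 and Gimap9, taken by gene name from the deposited tables. They are 8 of the 20853 genes that could be joined over all libraries, and all 8 passed the filter on low counts. The family was chosen by measured values: its exon read levels lay lower in thrombus and vein wall than in spleen in these same libraries, so the tissue differences below are a description and support nothing by themselves.

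All mice were DEREG mice, C57BL/6 animals with the transgene Tg(Foxp3-DTR/EGFP)23.2Spar, which under Foxp3 control expresses a diphtheria toxin receptor and EGFP. No diphtheria toxin is named in the labels, and age and sex are not given there. In every mouse the inferior vena cava had been ligated, a model of deep vein thrombosis with reduced flow, and the tissues were taken at day 14. The 3 groups were Treg from the thrombus, Treg from the vein wall and Treg from the spleen, with 4 libraries each, all gated as live CD45+ CD4+ EGFP+ CD69+ cells. EGFP reports the transgene and not the Foxp3 gene itself. The spleen came from mice with a ligated vein, so no group is from an animal without a thrombus. The labels do not say whether a library came from 1 mouse or several, nor whether libraries of a tissue came from separate mice, and a p-value here therefore speaks of the spread among the samples at hand, part of which may be technical.

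GIMAP proteins (GTPases of immunity-associated proteins) are small GTP-binding proteins with an AIG1-type GTPase domain, found mainly in lymphocytes and encoded in a single cluster of neighbouring genes. Several are anchored in intracellular membranes such as those of the endoplasmic reticulum, Golgi, lysosome or mitochondrion, and members act in pairs in which one can regulate the GTPase cycle of another. Loss of Gimap1, Gimap5 or Gimap6 in mice, or of Gimap5 in rats, leads to loss of T cells, and the family is known for its part in the survival and quiescence of peripheral T cells.

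Total exon reads ranged over 9719151 to 22038420 per thrombus library, 18574329 to 24042703 per vein wall library and 12978484 to 55386086 per spleen library. The files fall into 3 sets by their layout: set 1 holds thrombus 1 and spleen 1, set 2 holds thrombus 2, vein wall 1 and spleen 2, and set 3 holds the other 7 libraries. Set 2 uses NCBI gene models and the other sets Ensembl models. Vein wall 3 and 4 gave a mean chi-square per gene of 2.56 and spleen 3 and 4 one of 3.96, against 96.8 to 355 for the other 16 replicate pairs. Each of these close pairs was therefore summed to 1 sample, called vein wall 3+4 and spleen 3+4, which left 4 thrombus, 3 vein wall and 3 spleen samples. The 11 Treg and T cell markers, Foxp3, Cd4 and Cd69 among them, were all in the joined table, and their summed level was 9984 to 15466 CPM (counts scaled to a library of 1000000 reads) in thrombus, 13714 to 14765 in vein wall and 11091 to 15921 in spleen.

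The 8 genes lie side by side on chromosome 6 (GRCm38). In order of coordinate they are Gimap8 at chr6:48647234-48660875, Gimap9 at chr6:48676129-48679114, Gimap4 at chr6:48684549-48692060, Gimap6 at chr6:48701582-48708225, Gimap7 at chr6:48718621-48724636, Gimap1 at chr6:48739054-48743795, Gimap5 at chr6:48746197-48754210 and Gimap3 at chr6:48764464-48770851. Gimap6 and Gimap3 are on the minus strand and the other 6 on the plus strand. The 250 bases before the start are shown for Gimap7 and Gimap1, the members with the largest fitted differences between thrombus and spleen, and for Gimap3, the member with the smallest. The sequences are those of RefSeq on GRCm38.p6, written 5′ to 3′ on the strand of the gene. The windows are chr6:48718371-48718620 (plus) for Gimap7, chr6:48738797-48739046 (plus) for Gimap1 and chr6:48770852-48771101 (minus) for Gimap3, and capitals mark a match to one of the motifs named after them.
Gimap7: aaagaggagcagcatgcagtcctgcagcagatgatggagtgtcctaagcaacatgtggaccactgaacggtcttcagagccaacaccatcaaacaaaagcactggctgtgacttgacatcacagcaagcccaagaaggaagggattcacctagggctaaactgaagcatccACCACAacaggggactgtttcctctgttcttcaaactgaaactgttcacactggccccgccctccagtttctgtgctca
Gimap1: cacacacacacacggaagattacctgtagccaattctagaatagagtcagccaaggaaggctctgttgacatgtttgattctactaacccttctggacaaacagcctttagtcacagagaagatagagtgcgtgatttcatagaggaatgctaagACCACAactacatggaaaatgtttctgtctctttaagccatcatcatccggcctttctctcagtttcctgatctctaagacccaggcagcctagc
Gimap3: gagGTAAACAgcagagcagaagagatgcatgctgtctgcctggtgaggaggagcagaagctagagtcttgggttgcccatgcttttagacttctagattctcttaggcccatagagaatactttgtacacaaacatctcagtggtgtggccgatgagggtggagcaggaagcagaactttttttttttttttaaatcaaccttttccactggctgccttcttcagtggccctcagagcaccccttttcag

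Each window was searched on both strands for the letters TGTGGT, a core that RUNX factors bind, GGAAGT, a core that ETS factors bind, and GTAAACA, a core that FOXO factors bind, and the 3 motifs do not overlap in these windows. The RUNX letters stood once each before Gimap4, Gimap7 and Gimap1, with the first base of the match 145 bases before the start of Gimap4, 79 before Gimap7 and 95 before Gimap1. They occur in 14% of all 32851 promoter windows of the same length. The ETS letters stood once before Gimap6 and 2 times before Gimap5, and occur in 19.7% of all windows. The FOXO letters stood once, before Gimap3, and occur in 3.17% of all windows. No match was found before Gimap8 or Gimap9. A match is a string of letters in the window and not evidence of binding.

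The abundance of the family differed widely between its members. Compared per length, as RPKM (the CPM of exon reads divided by the exon length in kilobases), the mean level in thrombus was 601 ± 335 for Gimap4, 486 ± 73.5 for Gimap3, 485 ± 339 for Gimap6, 239 ± 224 for Gimap7, 203 ± 84.2 for Gimap9, 139 ± 92.9 for Gimap1, 116 ± 37.7 for Gimap5 and 27.3 ± 9.17 for Gimap8 (SD, n = 4). In vein wall the RPKM was 686 ± 449 for Gimap4, 540 ± 343 for Gimap6, 499 ± 232 for Gimap3, 320 ± 155 for Gimap7, 266 ± 87.5 for Gimap9, 209 ± 88.4 for Gimap1, 116 ± 19.3 for Gimap5 and 27.5 ± 20.8 for Gimap8 (SD, n = 3). In spleen it was 879 ± 337 for Gimap4, 669 ± 475 for Gimap6, 597 ± 104 for Gimap3, 539 ± 496 for Gimap7, 334 ± 259 for Gimap1, 282 ± 102 for Gimap9, 163 ± 43.3 for Gimap5 and 38 ± 2.41 for Gimap8 (SD, n = 3). Counted from uniquely matched reads alone, Gimap1 had 22.8 ± 33 RPKM in thrombus, 37.7 ± 51.8 in vein wall and 171 ± 277 in spleen (SD). Gimap7 had 143 ± 275 RPKM in thrombus, 167 ± 278 in vein wall and 360 ± 601 in spleen (SD). These values were lower since many of their reads were shared between gene models, and each mean came mostly from the set 2 sample. For Gimap1, spleen 2 had 14569 uniquely matched exon reads, spleen 1 had 259, and spleen 3 and 4 had 1302 and 501. Neighbours in these orders overlapped in their sample values, with the single exception of Gimap5 and Gimap8, whose values did not overlap in any of the 3 tissues. Gimap8, the member that carries several GTPase domains in tandem, had the lowest mean in each tissue on total exon reads. On uniquely matched reads its mean was 23.9 ± 8.26 RPKM in thrombus, 23 ± 17 in vein wall and 33 ± 1.61 in spleen (SD). The Gimap1 mean was lower in thrombus by that count, by less than either SD. By sample, Gimap7 lay below Gimap8 in thrombus 1 (28.81 against 32.31 RPKM) and Gimap1 in spleen 1 (39.82 against 40.54 RPKM). In set 2, where reads are least shared between gene models, spleen 2 had its highest RPKM in Gimap4 (1267), followed by Gimap6 (1212), Gimap7 (1054) and Gimap3 (674.3), while in thrombus 2 and vein wall 1 Gimap3 ranked above Gimap7 (567.5 against 554.8 RPKM in thrombus 2, and 752.1 against 487.5 in vein wall 1).

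Summed over the 8 genes, the family held 4130, 6581, 3712 and 4432 CPM of exon reads in thrombus 1 to 4, 6972, 4812 and 3863 CPM in vein wall 1, 2 and 3+4, and 4477, 9133 and 6798 CPM in spleen 1, 2 and 3+4. The means were 4714 ± 1279 CPM in thrombus (SD, n = 4), 5216 ± 1593 in vein wall (SD, n = 3) and 6803 ± 2328 in spleen (SD, n = 3). The tissues overlapped, and the set 2 sample was the highest in every tissue. Within each set the thrombus and vein wall samples lay below the spleen sample. In bulk RNA, fewer cells with a transcript and less of it per cell cannot be told apart.

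Fitted log2 fold changes were below 0 for all 8 genes in thrombus against spleen and for all 8 in vein wall against spleen, where 47.8% and 51% of all genes were below 0, and none of the 16 values passed the test. The fit was edgeR's quasi-likelihood test over 11703 genes with tissue as the only factor, at a Benjamini-Hochberg adjusted p under 0.05. In thrombus against spleen 0 of 8 members were called, where 0.145% of all genes were (17 genes, all higher), and 0 of 8 had an unadjusted p under 0.05, as 4.13% of all genes had. In vein wall against spleen 0 of 8 were called, against 0.111% of all genes (13 genes, all higher), and 0 of 8 had an unadjusted p under 0.05, against 5.47% of all genes. In thrombus against vein wall 0 of 8 were called, against 0% of all genes, with 0 of 8 at an unadjusted p under 0.05, against 2.91% of all genes. DESeq2's Wald test called 0 of 8 in each comparison. The members' median log2 fold change was -0.51 in thrombus against spleen (all genes 0.03), -0.41 in vein wall against spleen (all genes -0.01) and -0.12 in thrombus against vein wall (all genes 0.04). Both comparisons with spleen use the same spleen samples. Without spleen 2 the median in vein wall against spleen was -0.13 with 5 of 8 members below 0, and that in thrombus against spleen was -0.26 with 8 of 8 below 0.

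**Figure D1:**
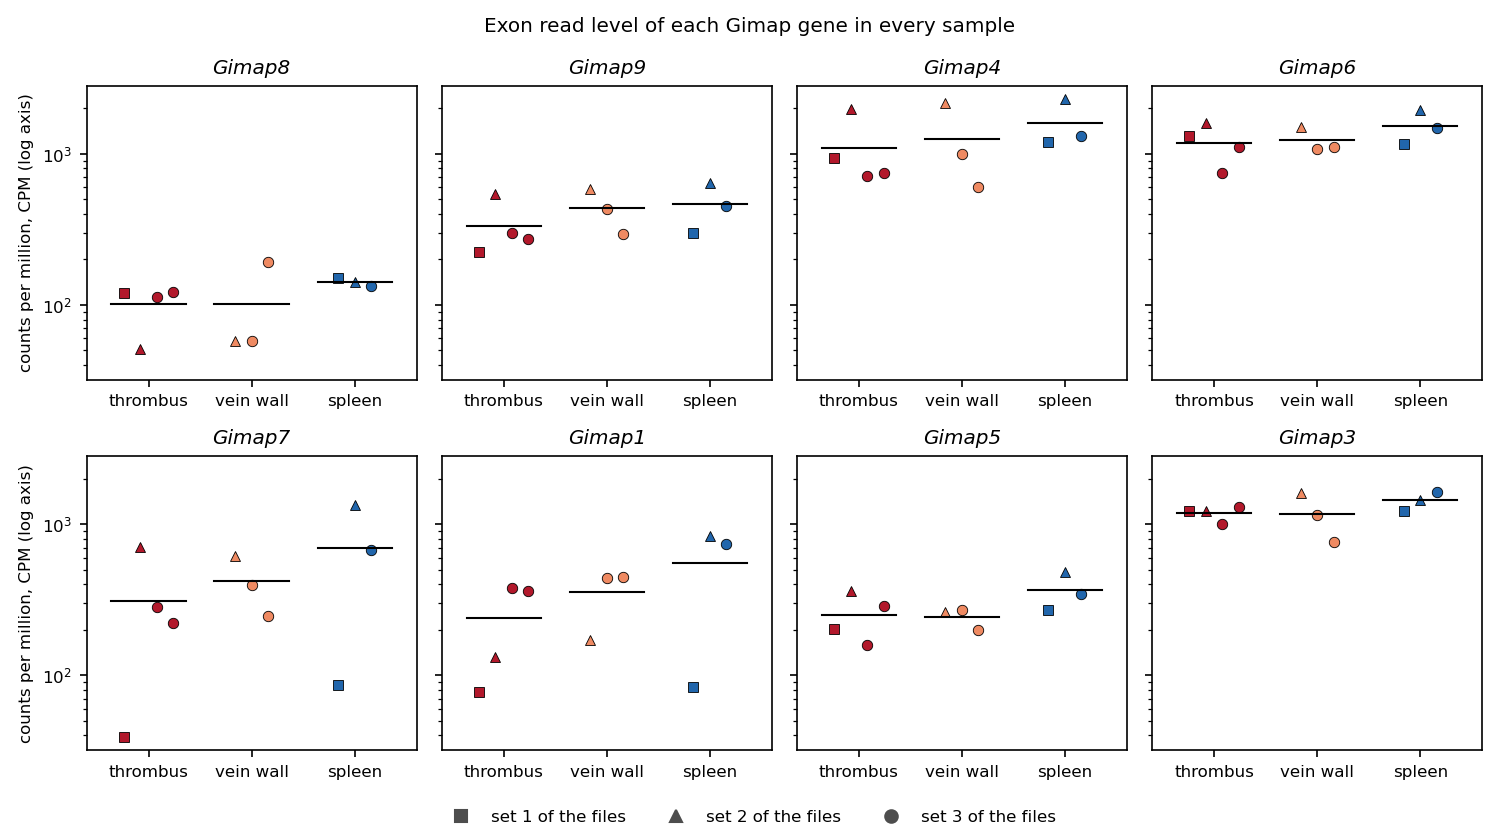
Exon reads of the 8 Gimap genes in CPM (log axis), 1 point per sample, for thrombus, vein wall and spleen, with the mean as a bar and the set of files as the symbol. The means of all 8 genes were highest in spleen, but the tissues overlapped for every gene other than Gimap8 in thrombus against spleen, and for Gimap7 and Gimap1 the set 1 samples lay lowest in thrombus and in spleen.

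Gimap7, which in biochemical work on the human protein stimulates GTP hydrolysis of a partner member, had 39.06, 704, 284.9 and 221.2 CPM in thrombus 1 to 4, 618.7, 394.4 and 246.4 CPM in vein wall 1, 2 and 3+4, and 85.96, 1337 and 679.5 CPM in spleen 1, 2 and 3+4. The tissues overlapped over all samples, and within each of the sets the spleen sample was the highest. The means were 312 ± 281 CPM in thrombus (SD, n = 4), 420 ± 187 in vein wall (SD, n = 3) and 701 ± 626 in spleen (SD, n = 3). With tissue only, the log2 fold change was -1.17 ± 1.02 in thrombus against spleen (SE, edgeR adjusted p = 1) and -0.74 ± 1.1 in vein wall against spleen (SE, adjusted p = 0.98). Within the sets, thrombus minus spleen on the log2 CPM scale was -1.14 in set 1, -0.93 in set 2 and -1.44 in set 3, and vein wall minus spleen was -1.11 in set 2 and -1.12 in set 3. The set 1 value rests on 602 exon reads in thrombus 1 and 1226 in spleen 1. There Gimap7 held 3.38% and 5.39% of the gene reads of 4 overlapping gene models described below, so the sets do not count Gimap7 alike. With the set of files added to the edgeR fit, Gimap7 passed the threshold in thrombus against spleen, with a log2 fold change of -1.2 ± 0.22 (SE, adjusted p = 0.0142). That fit called 0.0256% of genes lower in thrombus, namely Gimap7, Epcam and Spint2. In vein wall against spleen the same fit gave Gimap7 -1.05 ± 0.25 (SE, adjusted p = 0.106), which did not pass, and 0.0256% of genes were called lower there.

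The Gimap7 call rests on few samples. It held in 5 of the 10 fits that left out 1 sample with the set as a term, with edgeR adjusted p values of 0.0104 to 0.0461. In these 10 fits between 0% and 0.0518% of all genes were called lower in thrombus. It was lost without spleen 2 (adjusted p = 0.0867), spleen 3+4 (0.138), thrombus 1 (0.06), thrombus 3 (0.0548) or thrombus 4 (0.0521), where the log2 fold change was -1.24, -1.11, -1.22, -1.21 and -1.1. On uniquely matched exon reads with the set in the fit, Gimap7 gave -1.16 ± 0.24 (SE, adjusted p = 0.0453), where 0.0265% of genes were called lower. On gene reads, which include introns, it gave -1.36 ± 0.3 (SE, adjusted p = 0.0809), where 0.0208% of genes were called lower and Gimap7 was not. Without the set, its adjusted p was not under the threshold in any alternative, and over all 22 alternatives the adjusted p ranged over 0.0142 to 1 and the log2 fold change over -1.93 to -0.26.

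Gimap1, which mature T and B cells need for their survival in mice, had 77.68, 131.9, 380.9 and 363.4 CPM in thrombus 1 to 4, 170.7, 441.2 and 449.9 CPM in vein wall 1, 2 and 3+4, and 83.23, 840.7 and 743.1 CPM in spleen 1, 2 and 3+4. Spleen 2 and spleen 3+4 were above all other samples, while spleen 1 was among the lowest. The log2 fold change was -1.22 ± 0.79 in thrombus against spleen (SE, edgeR adjusted p = 1) and -0.65 ± 0.85 in vein wall against spleen (SE, adjusted p = 0.977). With the set in the fit the value was -1.32 ± 0.35 in thrombus against spleen (SE, adjusted p = 0.197) and -1.23 ± 0.39 in vein wall against spleen (SE, adjusted p = 0.338). The Gimap1 difference passed in that fit when a set 1 sample was left out, with adjusted p = 0.00712 and a log2 fold change of -1.85 in thrombus against spleen without spleen 1 (0.0163% of genes called lower), and 0.0126 without thrombus 1 (0.00868% called lower). In vein wall against spleen the adjusted p was 0.0345 without spleen 1 (0.0408% called lower) and 0.0473 without thrombus 1 (0.0434%). The difference was uneven over the sets, at -0.1 in set 1, -2.67 in set 2 and -1 in set 3 for thrombus minus spleen.

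Gimap5, a lysosomal member whose loss causes lymphopenia in rats, had 201.3, 361.4, 158.7 and 289.7 CPM in thrombus 1 to 4, 262.4, 270.6 and 200.8 CPM in vein wall, and 269.9, 479.9 and 346.8 CPM in spleen. Each thrombus and vein wall sample lay below the spleen sample of its set, while the tissues overlapped over all samples. The log2 fold change was -0.53 ± 0.34 in thrombus against spleen (SE, edgeR adjusted p = 1) and -0.58 ± 0.37 in vein wall against spleen (SE, adjusted p = 0.96). It was 0.05 ± 0.34 in thrombus against vein wall (SE, adjusted p = 1).

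The counts of Gimap7, Gimap1 and Gimap5 depend on the gene models. In sets 1 and 3 a read-through model, Gm28053 at chr6:48718607-48752644 on the plus strand, spans these 3 genes, and set 2 has no row for it. Of the Gimap7 exon reads, 100% were uniquely matched in set 2, 17% to 19.3% in set 1 and 2.56% to 3.21% in set 3. For Gimap1 the share was 87% to 92.9% in set 2, 18.9% to 21.8% in set 1 and 2.37% to 3.24% in set 3, and for Gimap5 it was 92% to 92.5% in set 2, 62.3% to 63.3% in set 1 and 46.2% to 67.8% in set 3. In set 1, Gm28053 took 71.9% to 72.2% of the gene reads of the 4 models together, against 6.42% to 9.59% in set 3. The low Gimap7 and Gimap1 counts of thrombus 1 and spleen 1 go with this split. Gimap1 is also overlapped on the other strand by Gimap1os, which had 1941 to 5230 exon reads per set 2 library, 12 to 20 in set 1 and no exons listed in set 3. The libraries do not mark strand, so reads in the stretch where Gimap1 and Gimap1os overlap cannot be told apart by strand.

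**Figure D2:**
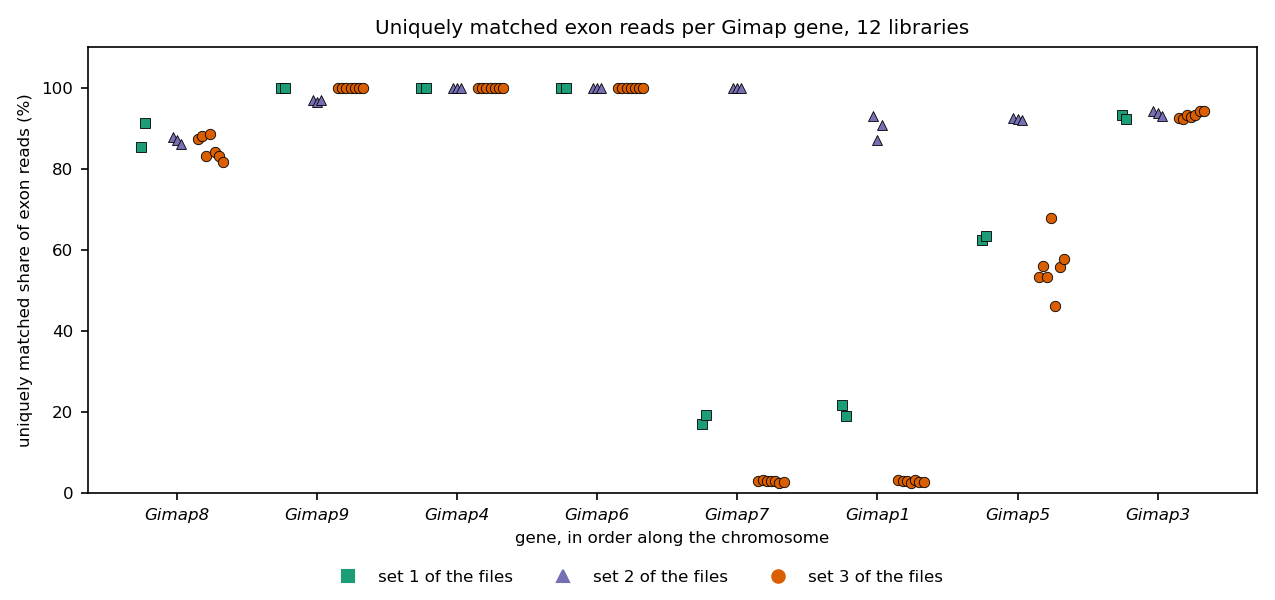
Share of exon reads (percent) that the files list as uniquely matched, for each Gimap gene in chromosomal order, 1 point per library, with colour and symbol for the set of files. Gimap9, Gimap4, Gimap6 and Gimap3 lay above 92% in all 12 libraries, while Gimap7 and Gimap1 lay below 22% in sets 1 and 3 and at 87% or more in set 2.

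Summing the gene reads of Gimap7, Gimap1, Gimap5 and Gm28053 puts the reads split among these models together, a sum chosen after the counts were seen. Of the Gm28053 gene reads, 89.7% to 96.3% were intron reads, and set 2 has no row for this model. How the counter divided shared reads is not stated, so the sum may not cover the same stretch in each set. Gimap1os is not in the sum. The sum was 1014, 1284, 868.4 and 877.3 CPM in thrombus 1 to 4, 1042, 1570 and 935.1 CPM in vein wall 1, 2 and 3+4, and 1384, 2655 and 2261 CPM in spleen 1, 2 and 3+4. All thrombus samples lay below all spleen samples, and vein wall overlapped both. On exon reads 2.5% of all genes tested had all thrombus samples below all spleen samples, and the share on gene reads was not computed. The sum holds Gimap7 and Gimap1, the members with the largest fitted differences in these same samples, so the order is a description. The means were 1011 ± 194 CPM in thrombus (SD, n = 4), 1182 ± 340 in vein wall (SD, n = 3) and 2100 ± 651 in spleen (SD, n = 3). The log2 fold change of the sum was -1.05 ± 0.35 in thrombus against spleen (SE, edgeR adjusted p = 0.716) and -0.83 ± 0.37 in vein wall against spleen (SE, adjusted p = 0.858). With the set in the fit it was -1.03 ± 0.26 in thrombus against spleen (SE, adjusted p = 0.178) and -0.87 ± 0.3 in vein wall against spleen (SE, adjusted p = 0.422). None of these passed the threshold after adjustment. The other 5 members, summed over exon reads, had 3910 ± 1057 CPM in thrombus (SD, n = 4), 4198 ± 1538 in vein wall (SD, n = 3) and 5180 ± 1226 in spleen (SD, n = 3), and the tissues overlapped.

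**Figure D3:**
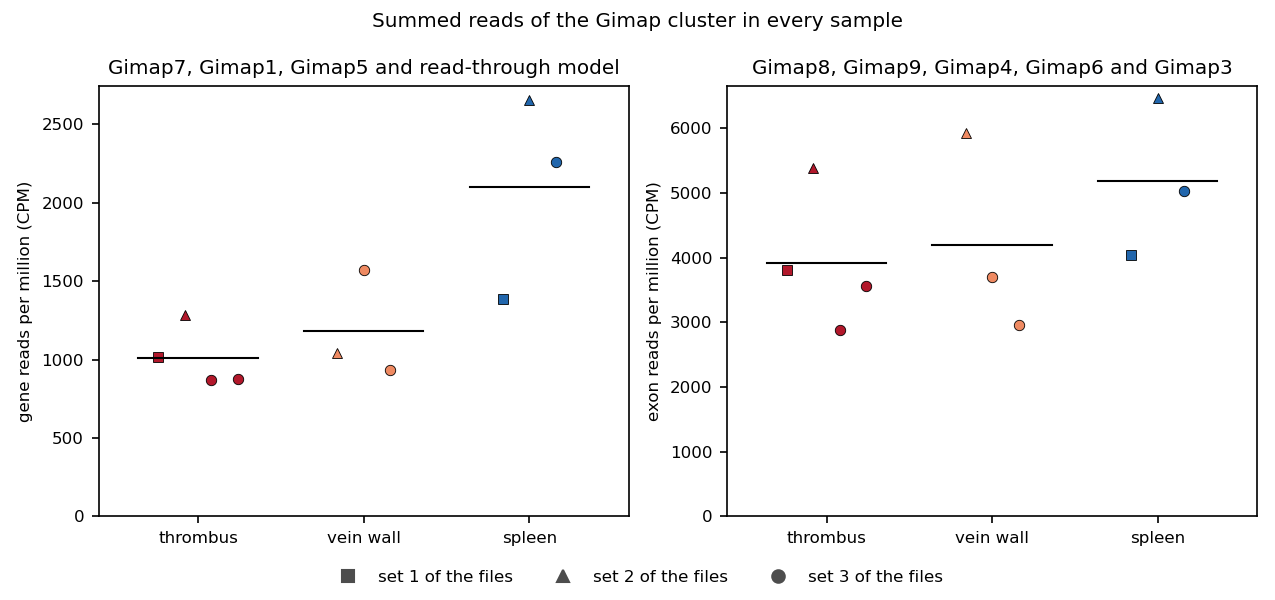
Summed gene reads of Gimap7, Gimap1, Gimap5 and the read-through model (left) and summed exon reads of the other 5 members (right), in CPM, 1 point per sample, with the mean as a bar and the set of files as the symbol. On the left the thrombus samples reach 1284 CPM and the spleen samples start at 1384 CPM. On exon reads 2.5% of all genes had all thrombus samples below all spleen samples. On the right the tissues overlap.

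Gimap3, a close paralog of Gimap5 in mice, had 1227, 1217, 1008 and 1309 CPM in thrombus 1 to 4, 1613, 1159 and 762 CPM in vein wall 1, 2 and 3+4, and 1231, 1446 and 1643 CPM in spleen 1, 2 and 3+4. Its thrombus samples kept within a narrow range, and 1 vein wall sample reached the spleen values. The log2 fold change was -0.28 ± 0.3 in thrombus against spleen (SE, edgeR adjusted p = 1) and -0.29 ± 0.32 in vein wall against spleen (SE, adjusted p = 0.965), the smallest of the family in thrombus. Within the sets, vein wall minus spleen had opposite signs, at 0.16 in set 2 and -0.81 in set 3.

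Gimap6, a partner of the autophagy protein GABARAPL2, had 1310, 1588, 750.2 and 1102 CPM in thrombus 1 to 4, 1510, 1068 and 1116 CPM in vein wall, and 1155, 1954 and 1483 CPM in spleen. Thrombus 1 lay above spleen 1, by 0.18 on the log2 scale, and the other sets went the other way, by -0.3 in set 2 and -0.71 in set 3. The log2 fold change was -0.37 ± 0.32 in thrombus against spleen (SE, edgeR adjusted p = 1) and -0.31 ± 0.34 in vein wall against spleen (SE, adjusted p = 0.965). Its annotated exon length was 1612 bases in set 2, 3496 in set 1 and 3192 in set 3, so exon and intron reads of Gimap6 are not the same stretch in each set.

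Gimap4, which speeds programmed death of T cells in mice, was the most abundant member per length. It had 932, 1988, 717.2 and 750.9 CPM in thrombus 1 to 4, 2153, 989.6 and 602.4 CPM in vein wall 1, 2 and 3+4, and 1201, 2293 and 1316 CPM in spleen 1, 2 and 3+4. The set 2 samples stood highest in each tissue, and each thrombus and vein wall sample lay below the spleen sample of its set. The log2 fold change was -0.55 ± 0.44 in thrombus against spleen (SE, edgeR adjusted p = 1) and -0.36 ± 0.47 in vein wall against spleen (SE, adjusted p = 0.977). With the set in the fit the standard errors were smaller, at -0.51 ± 0.2 in thrombus against spleen (SE, adjusted p = 0.592) and -0.42 ± 0.23 in vein wall against spleen (SE, adjusted p = 0.718).

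Gimap9 had 224, 540.1, 299.9 and 274.3 CPM in thrombus 1 to 4, 587.4, 431.2 and 294.9 CPM in vein wall, and 300.2, 641.3 and 454.1 CPM in spleen. Each thrombus and vein wall sample again lay below the spleen sample of its set. Its fitted log2 fold change was -0.48 ± 0.37 in thrombus against spleen (SE, edgeR adjusted p = 1) and -0.09 ± 0.4 in vein wall against spleen (SE, adjusted p = 0.994), the smallest of the family in vein wall.

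Gimap8 had 119.5, 51.21, 112.2 and 121.8 CPM in thrombus 1 to 4, 57.24, 58.05 and 190.9 CPM in vein wall 1, 2 and 3+4, and 150, 140.9 and 132.4 CPM in spleen 1, 2 and 3+4. It was the 1 member of 8 whose thrombus samples were all below all spleen samples, as was the case for 2.5% of all genes tested. Vein wall 3+4 was the highest of all samples, and the other vein wall samples were near the lowest. Its fitted log2 fold change was -0.48 ± 0.43 in thrombus against spleen (SE, edgeR adjusted p = 1) and -0.47 ± 0.47 in vein wall against spleen (SE, adjusted p = 0.962).

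**Figure D4:**
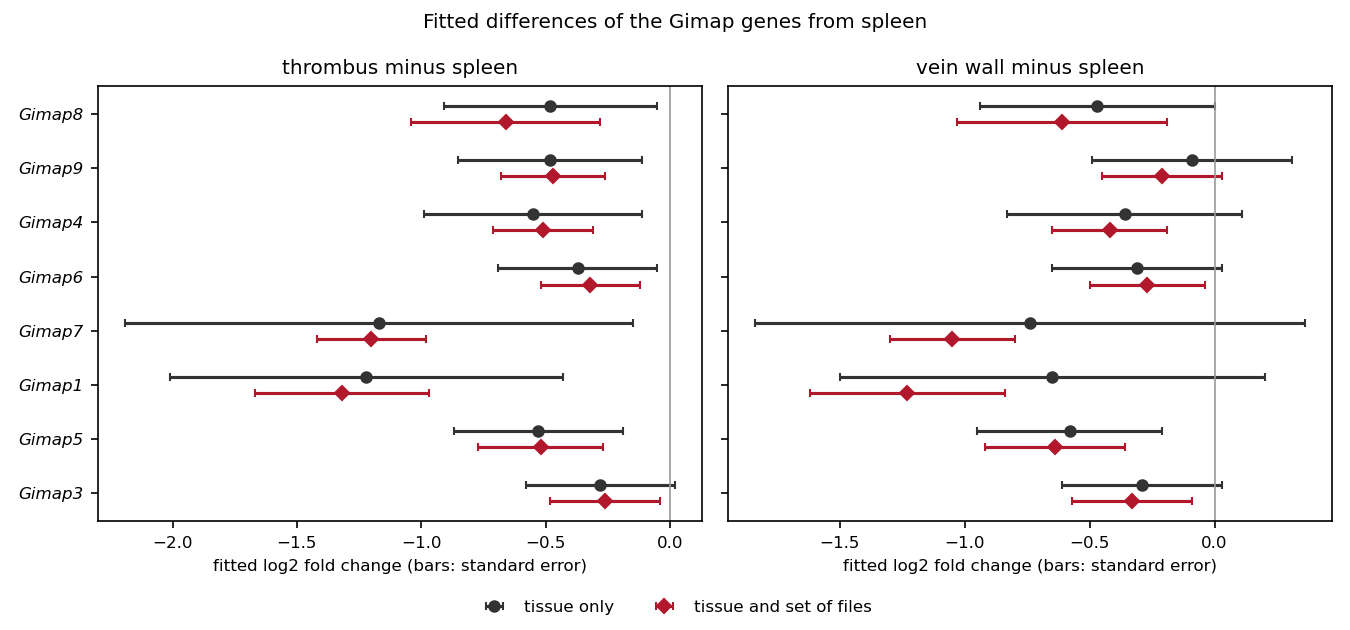
Fitted log2 fold changes of the 8 Gimap genes for thrombus minus spleen (left) and vein wall minus spleen (right), from the edgeR fit with tissue only (circles) and with tissue and set of files (diamonds), with standard errors as bars. All points lie below 0, and the standard error of Gimap7 in thrombus against spleen is 1.02 with tissue only and 0.22 with the set in the fit.

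Compared with the spleen sample of its own set, every thrombus sample was lower for 7 of 8 members, all but Gimap6, as was the case for 10.4% of all genes. Every vein wall sample was lower for 6 of 8 members, all but Gimap8 and Gimap3, as for 19.5% of all genes. Both held for Gimap9, Gimap4, Gimap7, Gimap1 and Gimap5, 5 of 8 members, against 5.07% of all genes. Set 1 holds no vein wall library, so the vein wall is compared in 2 sets. Since these samples are those in which the family was picked, the counts describe it and test nothing. With the set in the fit, 4 of 8 members had an unadjusted p under 0.05 and a value below 0 in thrombus against spleen, as 3.26% of all genes had (6.77% in either direction). In vein wall against spleen 3 of 8 members did, as 3.81% of all genes had (7.82% in either direction).

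**Figure D5:**
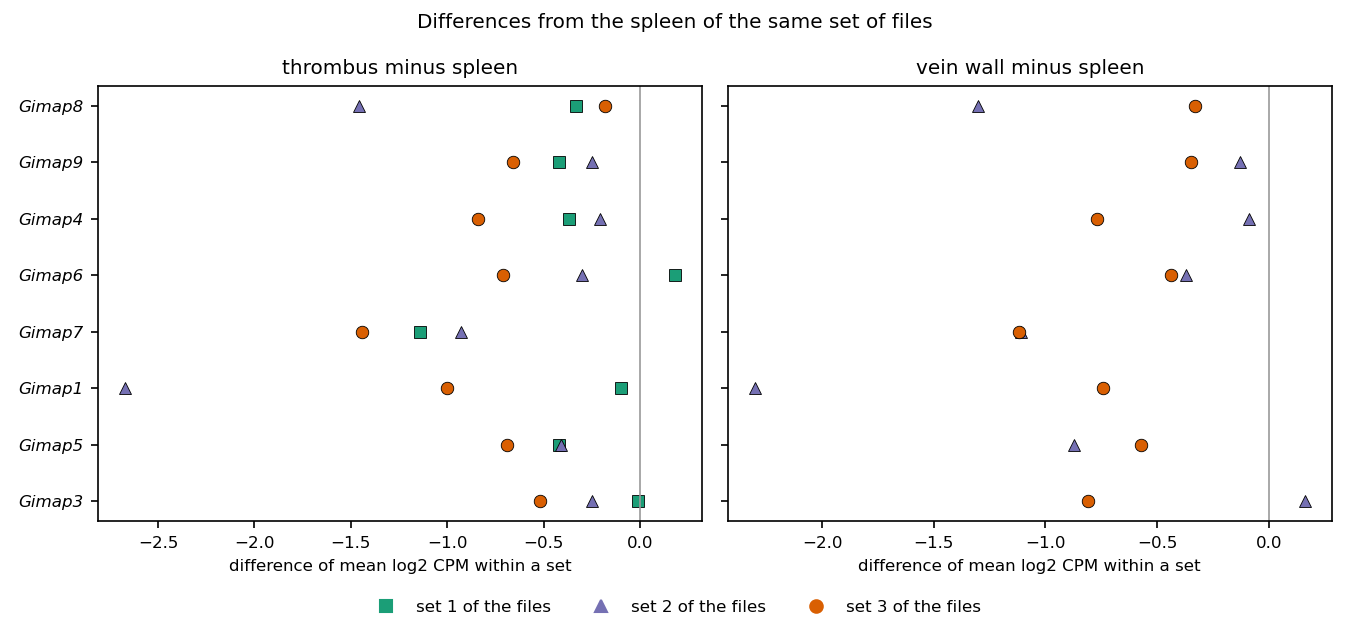
Difference of mean log2 CPM from the spleen sample of the same set of files, for thrombus (left, 3 sets) and vein wall (right, 2 sets), 1 point per set. Gimap7 lies between -1.44 and -0.93 in all sets and both tissues, while Gimap1 spans -2.67 to -0.1 in thrombus, and Gimap6 in set 1 thrombus (0.18) and Gimap3 in set 2 vein wall (0.16) are the points above 0. The Gimap7 and Gimap1 counts depend on the gene models of each set, and in set 1 Gimap7 had 602 exon reads in thrombus 1 and 1226 in spleen 1.

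Between thrombus and vein wall 0 of 8 members were called, against 0% of all genes, which does not show that the levels were alike. The fitted values were below 0 in 6 of 8 members, as in 47.7% of all genes, and ranged between -0.57 for Gimap1 and 0.05 for Gimap5, with edgeR adjusted p values of 1 throughout. The lower values in thrombus of Gimap1, -0.57 ± 0.79 (SE), and Gimap7, -0.43 ± 1.02 (SE), were smaller than their standard errors. With the set in the fit they were -0.08 ± 0.36 for Gimap1 and -0.15 ± 0.23 for Gimap7 (SE, adjusted p = 0.998 each). Only Gimap1 was lower in each thrombus sample than in all vein wall samples of its set, as were 7.48% of all genes.

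Intron reads are a readout that did not enter the choice of the family. Over all genes, the intron share of gene reads in set 3 was 19.7% and 20% in thrombus 3 and 4. It was 13.7%, 16.5% and 16.3% in vein wall 2 to 4, and 15.5% and 15% in spleen 3 and 4. The intron share of gene reads was below 4% for Gimap4 and Gimap9 in all 12 libraries, and between 15.6% and 38.7% for Gimap6. For Gimap8 it was 7.06% in thrombus 1, 20.6% in thrombus 2, 5.94% in thrombus 3 and 17.3% in thrombus 4. It was 14.2% in vein wall 1, 2.96% in vein wall 2, 2.56% in vein wall 3 and 2.25% in vein wall 4. In spleen it was 13.3%, 25.9%, 11.7% and 12% in libraries 1 to 4. Within set 3 the vein wall libraries were the lowest, the 95% exact binomial interval of vein wall 2 reaching up to 4.14%, while that of thrombus 3 started at 4.63% and that of spleen 4 at 10.9%, which covers counting error only, since PCR reads without molecular identifiers are not independent. For Gimap6 the vein wall libraries were the highest of set 3, with an intron share of 19.5% and 15.6% in thrombus 3 and 4, 26.3%, 22.4% and 23.3% in vein wall 2 to 4, and 21% and 19.1% in spleen 3 and 4. For Gimap3 in set 3 it was 6.31% and 5.87% in thrombus 3 and 4, 4.08%, 3.75% and 3.92% in vein wall 2 to 4, and 6.86% and 6.61% in spleen 3 and 4, so that the vein wall libraries were the lowest. Vein wall 3 and 4, and spleen 3 and 4, are the close pairs that were summed elsewhere. The orders within set 3 therefore rest on fewer samples than libraries. For Gimap7, Gimap1, Gimap5, Gimap4 and Gimap9 the vein wall libraries were neither all the highest nor all the lowest of set 3. Gimap7, for instance, had 6.73%, 0.697% and 0.518% in vein wall 2 to 4, and 4.09% and 1.65% in thrombus 3 and 4. The share of all genes with such orders was not computed, so the orders are a description. No test between tissues was run on these intron shares.

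Genes of pathways in which the family is known to act were mostly not called in the tissue-only fit. Of the 16 tested genes of an apoptosis list (the Bcl2 family, some members of which bind GIMAP proteins), 0 were called in any comparison. Their median log2 fold change was 0.54 in thrombus against spleen, 0.58 in vein wall against spleen and 0.15 in thrombus against vein wall, where the median of all genes was 0.03, -0.01 and 0.04 in these comparisons. Bcl2a1b, an anti-apoptotic member and the most abundant of the list, had 728 ± 255 CPM in thrombus (SD, n = 4), 831 ± 53.2 in vein wall (SD, n = 3) and 496 ± 110 in spleen (SD, n = 3). Next in mean CPM, Bax had 258 ± 73.5, 293 ± 60.4 and 259 ± 31.6 CPM in thrombus, vein wall and spleen (SD). Bcl2a1d had 259 ± 162, 370 ± 103 and 152 ± 82.6 CPM, and Mcl1 had 155 ± 34.6, 195 ± 130 and 198 ± 46.6 CPM, in the same order (SD). Of 12 autophagy genes and GIMAP partners 0 were called in any comparison, with a median of 0.15 in thrombus against spleen, 0.28 in vein wall against spleen and 0.02 in thrombus against vein wall. Gabarapl2, the partner of Gimap6, had 353 ± 204 CPM in thrombus (SD, n = 4), 483 ± 118 in vein wall (SD, n = 3) and 327 ± 41.4 in spleen (SD, n = 3). Of the 9 septins tested, which belong to a related GTPase family, 0 were called in any comparison, with a median of -0.08 in thrombus against spleen and 0.03 in each of the other 2 comparisons. Sept7, the most abundant of them, had 969 ± 355 CPM in thrombus (SD, n = 4), 1062 ± 281 in vein wall (SD, n = 3) and 1039 ± 408 in spleen (SD, n = 3).

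A list of 22 genes of the naive state, of quiescence and of factors upstream of lymphocyte genes had 1 gene called, Ccr7, which was higher in thrombus than in spleen and in vein wall than in spleen. Ccr7, the receptor that guides T cells to lymph nodes, had 797 ± 409 CPM in thrombus (SD, n = 4), 714 ± 144 in vein wall (SD, n = 3) and 154 ± 29.8 in spleen (SD, n = 3). Its log2 fold change was 2.37 ± 0.39 in thrombus against spleen (SE, edgeR adjusted p = 0.00804) and 2.22 ± 0.4 in vein wall against spleen (SE, adjusted p = 0.0245). With the set in the fit Dusp10, a phosphatase of stress-activated kinases, was called as well, with adjusted p = 0.00369 in thrombus and 0.00973 in vein wall. The other 20 genes of the list were called in neither fit. Btg1, an antiproliferative factor of resting T cells, had 1338 ± 355 CPM in thrombus (SD, n = 4), 1584 ± 473 in vein wall (SD, n = 3) and 1151 ± 290 in spleen (SD, n = 3), and Ets1, a T cell transcription factor, had 486 ± 210 CPM in thrombus, 416 ± 105 in vein wall and 458 ± 174 in spleen. The median of the list was 0.34 in thrombus against spleen, 0.05 in vein wall against spleen and 0.25 in thrombus against vein wall.

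The genes around the cluster varied in direction. Within 300 kb of it the files list 55 further gene models, of which 13 had 10 or more exon reads in at least 3 libraries and 9 entered the fit. Of these 9, 0 were called in any comparison. Krba1 had 8.84 ± 5.61 CPM in thrombus (SD, n = 4), 17.9 ± 7.7 in vein wall (SD, n = 3) and 22.8 ± 7.07 in spleen (SD, n = 3). Zfp467 had 17 ± 9.12 CPM in thrombus, 15.7 ± 17.8 in vein wall and 28 ± 4.73 in spleen, and Lrrc61 had 23.9 ± 11.2, 22.8 ± 15.2 and 24.5 ± 6.77 CPM in thrombus, vein wall and spleen. Tmem176a had 30 ± 12.8 CPM in thrombus, 10 ± 12.3 in vein wall and 3.59 ± 0.753 in spleen, and Tmem176b had 40.7 ± 42.2 in thrombus, 18.6 ± 13.9 in vein wall and 18.9 ± 13.4 in spleen. Gpnmb, Repin1, Sspo and Zfp775 averaged below 10 CPM in every tissue.

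The genes whose log2 CPM over the 10 samples was most like the mean profile of the family were Rnase4, with a Pearson r of 0.927, Mrps18b (0.925), Sh3bp2 (0.911), Zfp937 (0.907) and Timm9 (0.903). After the mean of each set was subtracted they were Neb (0.967), Palm3 (0.961), Gfra2 (0.935), Tgtp2 (0.934) and Cxcr3 (0.931). The 2 lists of 5 share no gene. Gfra2 and Palm3 averaged 1.07 CPM or less in every tissue, so their likeness rests on few reads. Cxcr3, a chemokine receptor of Th1-type Treg, had 182 ± 65 CPM in thrombus (SD, n = 4), 152 ± 21.8 in vein wall (SD, n = 3) and 332 ± 63 in spleen (SD, n = 3). Such a profile is shared with library, depth and set, and no p is given for it.

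Markers of other cell types moved with some of the samples. The summed macrophage and monocyte markers (10 genes) ranged over 61 to 2116 CPM in thrombus, 23.5 to 418 in vein wall and 98.4 to 224 in spleen. Thrombus 2, at 2116 CPM, was the thrombus sample with the highest Gimap4, Gimap5, Gimap6, Gimap7 and Gimap9 and the lowest Gimap8. Most of that sum was Lyz2 (1349 CPM) and Ly6c2 (357 CPM). Adgre1, Cd68, C1qa, C1qb and Cd14 were also highest in thrombus 2, while Csf1r, C1qc and Mrc1 were not. Thrombus 2 is also the only thrombus sample of set 2, and the set 2 samples had the highest Gimap4, Gimap6, Gimap7 and Gimap9 in every tissue. Spleen 2, of the same set, had 118 CPM of the macrophage and monocyte markers. The B and plasma cell markers (7 genes) summed to 202 to 983 CPM in thrombus, 371 to 1343 in vein wall and 161 to 299 in spleen, and each vein wall sample and each thrombus sample other than thrombus 4 exceeded the spleen range. The erythroid markers (6 genes) summed to 6.81 to 2043 CPM in thrombus, 2.47 to 50.8 in vein wall and 59.5 to 1814 in spleen. Neutrophil markers (6 genes) summed to at most 8.44 CPM and smooth muscle markers (4 genes) to at most 6.16 CPM in any sample. The endothelial markers (7 genes) summed to 54.9 to 67 CPM in thrombus, 44.5 to 47.4 in vein wall and 24.1 to 52.5 in spleen, so that each thrombus sample exceeded the spleen range. Most of that sum was Pecam1, which leukocytes also express, at 54.7 to 65 CPM in thrombus, 41.2 to 47.3 in vein wall and 23.2 to 52.5 in spleen; Emcn was at 0 in all samples, and Cdh5 reached at most 3.23 CPM. The fibroblast markers (6 genes) summed to 4.34 to 18.7 CPM in thrombus, 10.3 to 59.8 in vein wall and 0 to 0.453 in spleen, and every thrombus and vein wall sample exceeded the spleen range. The dendritic cell markers (7 genes) summed to 4.91 to 93.7 CPM in thrombus, 3.09 to 20.4 in vein wall and 6.6 to 17.7 in spleen, and the platelet markers (5 genes) to 3.24 to 50.1 CPM in thrombus, 0 to 6.33 in vein wall and 1.18 to 4 in spleen. Thrombus 2 was the highest sample of both lists, mostly through Siglech (75.9 CPM) for dendritic cells and Pf4 (46.8 CPM) for platelets. Flt3 and Clec9a were also highest in thrombus 2, and the other genes of both lists were not. Zbtb46 was at 1.06 CPM there against 12.4 in thrombus 3, and Itga2b at 0 against 1.04 in thrombus 1. CD8 T and NK cell markers (7 genes) summed to 39.1 to 318 CPM in thrombus, 71 to 193 in vein wall and 69 to 116 in spleen. Of the 76 marker genes 55 entered the tissue-only fit, 5 of the 6 fibroblast and 1 of the 7 endothelial markers among them, and 0 were called. The share of all genes whose samples all exceeded the spleen range is not given here, so these orders only describe the samples. The part of these cell types in the Gimap values was not tested.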

How the data were processed

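Bulk RNA-seq of 12 libraries was analysed, 4 each of CD69+ Treg from thrombus, vein wall and spleen. Per the labels' protocols, full-length cDNA made with a SMART-Seq kit went into Nextera XT libraries, without strand marking or molecular identifiers. Per the file headers, the authors deposited counts of total and unique exon reads, intron reads and gene reads for every gene model. The build is GRCm38 (per the submitters' processing notes), and aligner and counter are not given in the sources used. Exon reads with more than 1 match made up 13.6% to 21.8% of the total.

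Genes of sets 1 and 3 were joined by Ensembl ID (21899 genes) and set 2 by symbol (20733) or synonym (120), which gave 20853 genes with 92.3% to 96.3% of exon reads. Total exon counts entered edgeR 4.0.16 under R 4.3.3 (quasi-likelihood, robust, TMM normalization, filterByExpr, tissue as the only factor, 10 samples, 11703 genes, Benjamini-Hochberg adjustment). The set of files as a covariate, DESeq2 1.42.0, other filters and read columns, and each sample left out were alternatives. CPM values use the TMM library sizes, and RPKM divides them by the exon length of the set. Log2 CPM uses a prior count of 2. The fit was also run on simulated counts with the same dispersion for all genes and no effect of the set of files. That run does not cover the differences between sets in these data.

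All 8 members are named. The genes most like the family are those with the highest Pearson r with the mean of the members' standardized log2 CPM, the first 5 of each ranking. Neighbours lie within 300 kb. Of each list, the genes called and up to 4 of high mean CPM may be named. The members, lists and markers were chosen with earlier results of these data known, and the motifs and the alternatives on gene reads after the counts were seen.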

Additional observations from a re-analysis of the deposited data

Results flagged for a closer look

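Among the 4 thrombus samples, 2 single values stood apart by Dixon's test, which flags about 1 group in 20 by chance, and 8 groups were tested. Gimap8 had 51.21 CPM in thrombus 2, while the other thrombus samples had 112.2 to 121.8 CPM. Gimap4 had 1988 CPM in thrombus 2, while the other thrombus samples had 717.2 to 932 CPM. Both values belong to the same sample, the only thrombus sample of set 2. Vein wall 1, of the same set, had 57.24 CPM of Gimap8 and 2153 CPM of Gimap4, and spleen 2 had 140.9 and 2293 CPM. Thrombus 2 also had the highest summed macrophage and monocyte markers (2116 CPM, of which Lyz2 gave 1349 CPM), whose part in these values was not tested.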

How the results depend on the processing

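The members' median log2 fold change kept its sign in thrombus against spleen and in vein wall against spleen under all 22 alternatives, and leaving out each sample in turn gave -0.77 to -0.26 and -0.51 to -0.13. In thrombus against vein wall it ranged over -0.32 to 0.02 and was above 0 without vein wall 1. With tissue only, leaving out single samples called 0 members; with the set in the fit as well, it called Gimap7 in 5 of 10 fits, and Gimap1 without spleen 1 and without thrombus 1. With tissue and set of files in the fit, 1 member (Gimap7) was called in thrombus against spleen, on total and on unique exon reads, and 0 on total gene reads; the last of these and the unique read fit were chosen after seeing the data.

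The number of all genes called moved by more than 1.5 times. In thrombus against spleen (17 genes) it was 104 with DESeq2's Wald test, 80 without the low-count filter, 34 with 12 separate libraries, 53 with the set of files, 51 with the replicate number as a block, 9 on total gene reads, 45 on total gene reads with the set, 49 on unique reads with the set, and 6 to 34 leaving out 1 sample (6 without spleen 2, 8 without spleen 3+4, 34 without spleen 1). In vein wall against spleen (13 genes) the numbers were 117, 66, 50, 48 and 64 for the first 5 of these, 7 on unique reads, 37 and 36 with the set on total gene and on unique reads, and 5 to 28 leaving out 1 sample (5 without spleen 2, 6 without spleen 3+4, 28 without spleen 1). In thrombus against vein wall (0 genes, 341 at an unadjusted p under 0.05) there were 10 with DESeq2, 2 without the filter and 0 to 0 leaving out 1 sample. The causes were not tested.

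With the labelled replicate number as a block over 12 libraries, 0 members were called in each comparison. Same-numbered libraries correlated at 0.09 to 0.45 between thrombus and spleen, -0.1 to 0.06 between vein wall and spleen and 0 to 0.24 between thrombus and vein wall. Differently numbered libraries were not set beside them, so these values cannot decide whether the numbers pair the samples. The labels do not say so, and the main fit did not use the numbers.

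No reversed member difference passed the threshold. In vein wall against spleen, leaving out 1 sample moved Gimap9 over -0.34 to 0.25, Gimap4 over -0.99 to 0.02 and Gimap7 over -1.26 to 0.17. In thrombus against vein wall, leaving out 1 sample moved Gimap8 over -0.32 to 0.81, Gimap4 over -0.66 to 0.45, Gimap6 over -0.24 to 0.12, Gimap5 over -0.18 to 0.22 and Gimap3 over -0.22 to 0.29. There, Gimap8 was 0.007 with DESeq2's size factors, 0.0069 with its Wald test, 0.04 on unique reads and 0.0044 on total gene reads. Gimap4 was 0.02 with 12 libraries and 0.05 with the replicate block. Gimap5 was -0.0031 without the filter, -0.26 on total gene reads and -0.13 with the set added to them, and Gimap3 was -0.02, -0.1 and -0.02 in the same 3 settings. Per length, RPKM from unique reads differed from the total by more than 1 SD between samples in 5 of 24 gene and tissue means. Gimap8 had the lowest RPKM of the members by tissue mean of total reads, and the counts of Gimap7 and Gimap1 go with the gene models of each set.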
